A study of Oryza sativa with 8 samples.

Results

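The HS-only regions of Nip are stretches of the rice genome that carried an ATAC-seq peak in both heat-stressed libraries of the cultivar Nipponbare (Nip, a japonica rice) and in neither library of its unheated seedlings. The peaks of the 4 Nip libraries on the 12 chromosomes were pooled, and peaks that overlapped or touched were merged into 49606 regions. Of these, 4997 were HS-only. The members were chosen by the presence of called peaks in HS and Normal, so their number and the strength of their peaks are given as a description, without a test. The 4997 regions are also not replicates of the treatment, of which there were 2 libraries per condition.

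ATAC-seq reads out the sites at which the transposase Tn5 can insert adapters, which are mostly stretches of DNA not wrapped in nucleosomes. In plants such sites are mainly promoters and enhancers that transcription factors and chromatin remodelers keep open. Heat activates the heat shock factors, transcription factors that bind repeats of a short element in front of genes for heat shock proteins, the chaperones that keep other proteins folded. Sites that open in heat are therefore of interest as candidate control elements, but a peak list alone does not say which factor bound or which gene it served.

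The study grew seedlings of Nip and of the indica rice 93-11 and took the aerial parts at the age of 3 weeks. HS seedlings had been held at 45 °C for 36 h, at high relative humidity and at a light intensity below that of normal growth. Normal seedlings had no heat treatment, and their light and humidity during those hours were not stated, so the effects of heat, light and humidity cannot be told apart. Each condition had 2 Nip libraries, described as biological replicates, made from whole aerial parts with many cell types. In such material, a site that opened in more cells and a site that opened further in the same cells cannot be told apart. The cultivar 93-11 was not compared region by region, because its lists are on another assembly.

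The HS lists held 36279 and 36743 peaks on the chromosomes and the Normal lists 31399 and 29542. The peaks covered 17.2 and 17.3 Mb in HS and 12.9 and 12.4 Mb in Normal. Each peak carries a −log10 p, the strength of the evidence that fragments piled up above background, and the lowest value in a list was 2.67 in both HS lists and 2.81 and 2.82 in the Normal lists. Read depth is not in the lists. In its place a background rate, the number of fragments that chance alone would stack on a base, was recovered from the values, and it was 6.82 ± 0.0389 in HS and 5.26 ± 0.0636 in Normal (SD, n = 2 each). The rate was 29.7% higher in HS. A higher background rate goes with more reads or longer fragments and lets weaker sites pass as peaks, so a part of the HS-only number that comes from depth cannot be told apart from one that comes from the treatment.

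HS-only regions made up 10.1% of all Nip regions. The opposite class, with a peak in both Normal lists and neither HS list (Normal-only), had 1034 regions, or 2.08%. The background was the number of regions specific to a mixed pair, that is to 1 HS and 1 Normal library. HS replicate 1 with Normal replicate 1 had 607 such regions (1.22%) and with Normal replicate 2 had 484 (0.976%). HS replicate 2 with Normal replicate 1 had 646 (1.30%) and with Normal replicate 2 had 551 (1.11%). The HS-only class was thus 8.74 times the mean of the mixed pairs, 7.74 times the highest of them and 4.83 times the Normal-only class. The mixed pairs reuse the same 4 libraries, and each joins 2 lists of unlike background rate. They do not give the number to be met in 2 HS libraries without an effect of treatment. With only the 10000 strongest peaks of each list, which makes the lists equally long, there were 1294 HS-only and 1192 Normal-only regions, a ratio of 1.09. HS-only regions were 16.6% of the 30101 regions with a peak in both HS lists, whereas Normal-only regions were 4.50% of the 22980 regions with a peak in both Normal lists. With 1 library left out, the rule asks for 1 peak less or tolerates 1 more, and the number was 9447 without HS replicate 1, 9138 without HS replicate 2, 7594 without Normal replicate 1 and 6884 without Normal replicate 2. Without a Normal replicate the Normal-only class needs a peak in only 1 Normal list. It then had 4015 (replicate 1 left out) and 4869 regions (replicate 2 left out), and the ratio to it was 1.89 and 1.41. Without an HS replicate the HS-only class needs only 1 HS list, and the ratio was 5.61 (replicate 1 left out) and 5.37 (replicate 2 left out).

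**Figure D1:**
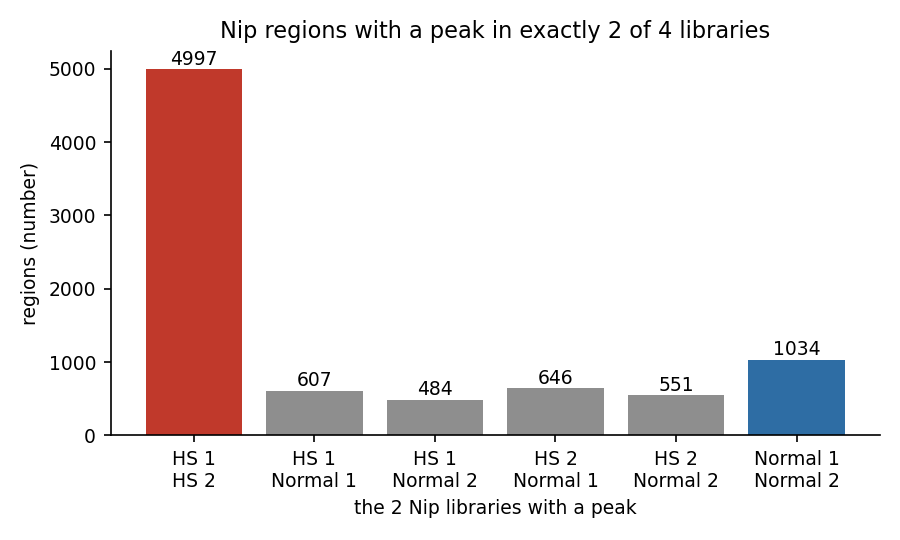
Number of Nip regions (y axis) with a peak in exactly 2 of the 4 libraries, by the pair of libraries (x axis). The pair of HS libraries had 4997 regions (red), the 4 mixed pairs had 484 to 646 (grey) and the pair of Normal libraries had 1034 (blue).

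The HS-only regions were short, with a median length of 386 bp. The shortest had 163 bp, the longest 2318 bp, and 8 in 10 had between 238 and 691 bp. Only 97 (1.94%) reached 1 kb. Together they covered 2.18 Mb, 8.81% of the length covered by all regions. Regions of mixed pairs had a median of 346 bp, Normal-only regions 356 bp, and the 20632 regions with a peak in all 4 libraries (shared regions) 641 bp, of which 15.2% reached 1 kb.

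The peaks of the HS-only regions were of low to middling strength. In HS replicate 1 their −log10 p ran from 2.74 to 65.3 with a median of 8.48, and in HS replicate 2 from 2.71 to 102.9 with a median of 8.88. The shared regions had medians of 25.8 and 26.3 in the same 2 lists. In regions of mixed pairs the HS peak had a median of 5.55 in HS replicate 1 and 5.49 in HS replicate 2, so the HS-only regions lay between the classes. In the list of HS replicate 1, 39.9% of the members lay below percentile 25, 43.6% between 25 and 50, and 1.40% above 75. In HS replicate 2, 38.0% lay below percentile 25 and 1.58% above 75. A −log10 p of 20 or more was reached by 330 members (6.60%) in HS replicate 1 and 369 (7.38%) in HS replicate 2, and the 500 strongest peaks of either list held 0 members.

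**Figure D2:**
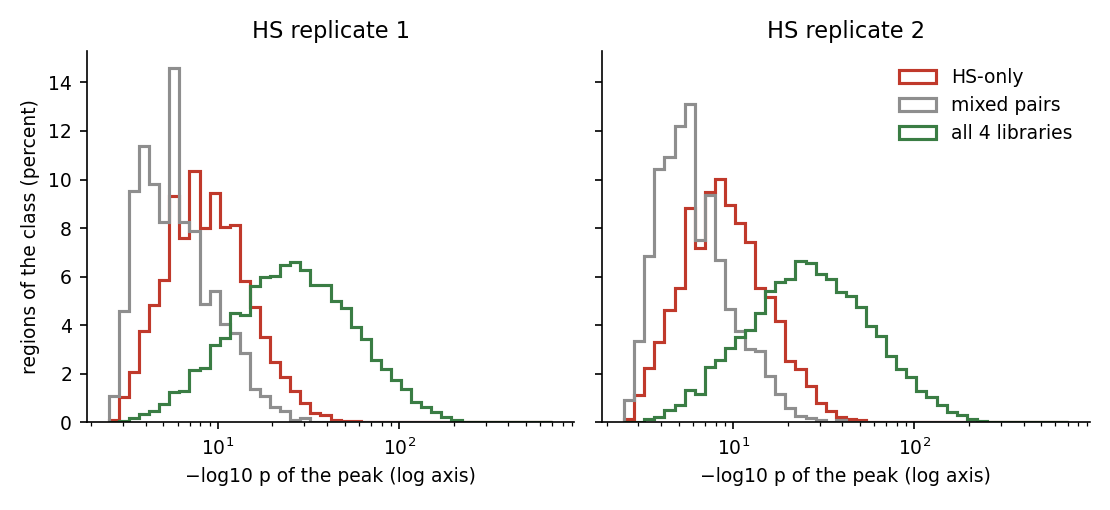
Distribution of the −log10 p of peaks (x axis, log scale) in HS replicate 1 (left) and HS replicate 2 (right), as the percent of the regions of each class (y axis). HS-only regions (red; medians 8.48 and 8.88) lay above the HS peaks of mixed pairs (grey; 5.55 and 5.49) and below the regions open in all 4 libraries (green; 25.8 and 26.3).

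How often a region of both HS lists lacked a Normal peak depended on its strength. Regions were placed by the lower of their 2 percentiles in the HS lists, where 0 is the weakest peak. In the lowest band of 10 percentiles, 868 of 1650 regions (52.6%) had no Normal peak and were HS-only. The share was 33.5% between percentiles 20 and 30, 16.3% between 40 and 50, 4.72% between 60 and 70 and 0.372% between 80 and 90. In the highest band it was 0.0645%, or 2 of 3100 regions. The same curve for regions of both Normal lists without an HS peak began at 23.0% in the lowest band and was below the HS curve in every band but the highest, where 3 of 2600 regions (0.115%) lacked an HS peak. The excess of HS-only over Normal-only regions thus lay among weak and middling peaks, and nearly all of the strongest sites of either condition had a peak in the other.

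**Figure D3:**
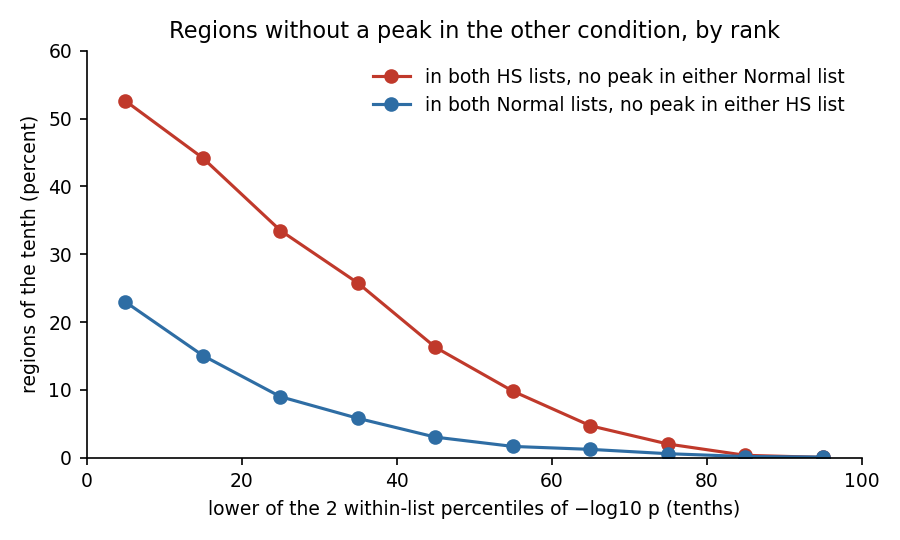
Percent of reproducible regions without a peak in either library of the other condition (y axis), by the lower of their 2 within-list percentiles (x axis, bands of 10). Regions of both HS lists without a Normal peak (red) were 52.6% of the lowest band and 0.0645% of the highest, and regions of both Normal lists without an HS peak (blue) were 23.0% and 0.115%.

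The thresholds of the lists differed slightly between HS and Normal. Only 13 members (0.260%) had an HS value under 2.82, the higher of the lowest values in the 2 Normal lists. After the HS pileups were scaled to the background rate of the Normal libraries, an adjustment chosen after seeing the data, 4867 members (97.4%) would still have reached that value and 130 (2.60%) would not. The Normal lists were left unchanged, so this scaling could only remove members, and its cut lay far below most of their values. It does not show how large the class would be at equal depth. The median of the lower of the 2 values was 7.23 as listed and 5.88 after scaling. Expressed as a fold over background, the lower of the 2 peaks had a median of 3.53 in HS-only regions and 6.75 in shared regions, and 1707 members (34.2%) had both peaks at 4 times the background or more. Scaling and folds apply 1 background rate per list to every value. Only 33.2% of the values in HS replicate 1 and 33.5% in HS replicate 2 matched that rate at a whole pileup. For the other values, folds and scaled values are approximate. These values describe the HS side. How much signal lay below the threshold in the Normal libraries is not in the lists, so HS-only means that no peak was called in Normal and not that the site was closed.

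The regions just inside and just outside the rule show how fine this edge was. The lowest ranked member lay on chromosome 8 between 27740194 and 27740697, with values of 3.93 and 2.71 in HS replicates 1 and 2. The next rank was a tie of several members. Among them were regions on chromosome 11 between 15996738 and 15997054 (4.53 and 2.71) and on chromosome 9 between 5271972 and 5272296 (3.59 and 2.71). Outside the rule stood 4472 regions with a peak in both HS lists and in 1 Normal list, whose Normal value had a median of 6.18 and was under 4 in 507 of them (11.3%). The one with the lowest Normal value, on chromosome 5 between 24430684 and 24431484, had 20.2 and 28.0 in HS and 2.87 in Normal replicate 2. The next had 5.03 and 6.57 in HS and 2.88 in Normal replicate 1 (chromosome 2, 32039636 to 32040182), and the one after it had 5.03 and 3.55 in HS and 2.91 in Normal replicate 2 (chromosome 10, 7399977 to 7400871).

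Both HS libraries placed their peak at nearly the same spot in most HS-only regions. In the 4936 members with 1 peak per library, the median Jaccard index of the 2 peaks, the bases in both divided by the bases in either, was 0.710. The index was at least 0.5 in 79.5% of them, and the centres of the 2 peaks lay a median of 41 bp apart. In mixed pairs the median index was 0.539 to 0.571, the share at 0.5 or more was 55.4% to 60.5%, and the centres lay 56 to 64 bp apart. Normal-only regions had an index of 0.624 and shared regions 0.822 between their HS peaks. At like strength, among regions whose lower HS value was between 5.22 and 10.6, the middle range of the members, the index was 0.710 in HS-only and 0.717 in shared regions. The rule fixed a part of this, since the 2 peaks of such a member had to overlap or touch to form 1 region. In shared regions a Normal peak could join 2 HS peaks that did not meet. The indices are therefore descriptions and no check on how well positions repeated. Mixed pairs and Normal-only regions were not matched for strength. The 2 −log10 p values, which are not peak heights, were within 2-fold of each other in 93.0% of the members. This was near the shares in mixed pairs (88.6% to 92.6%) and in Normal-only regions (93.5%). Over all shared regions, whose peaks were stronger, the share was 97.2%. At like strength, in the same range of the lower HS value, it was 93.9% in HS-only and 90.2% in shared regions.

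At the same strength, HS-only peaks were narrower than shared peaks. The rule may favour this, since a wider HS peak is more likely to overlap a Normal peak and leave the class, but its part was not tested. Among peaks with a −log10 p between 12 and 14, the median width in HS replicate 1 was 341 bp in HS-only and 426 bp in shared regions, and in HS replicate 2 it was 347 bp in HS-only and 406 bp in shared regions. Between 25 and 35 the widths of HS-only and shared peaks were 403.5 and 532 bp in HS replicate 1 and 424 and 529 bp in HS replicate 2. Between 4 and 5 they were 249.5 and 298 bp in HS replicate 1 and 252 and 293 bp in HS replicate 2. The order was the same in both libraries in each of these ranges, and in regions of both HS lists and 1 Normal list peaks were also narrower than in shared regions in each range, with medians between 12 and 14 of 368 bp in HS replicate 1 and 349 bp in HS replicate 2.

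The strongest member lay on chromosome 10 between positions 13300529 and 13301063 of the assembly used for the lists, counted from 1. Its −log10 p was 65.3 in HS replicate 1 and 102.9 in HS replicate 2, at percentiles 93.2 and 97.8 of the lists. The nearest Normal peak was 2805 bp away. Only 2 members had both values in the highest 10 percentiles of their lists. The other was on chromosome 1 between 1364820 and 1365570, with 59.3 and 62.9 and a Normal peak 2918 bp away.

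The ranks from 3 to 10 had values between 38.2 and 73.1. Rank 3, on chromosome 8 between 22720105 and 22720828, had 57.2 and 52.1, with another member 1013 bp away. Chromosome 2 held rank 4 (29056886 to 29057506, with 49.9 and 50.7) and rank 5 (27466109 to 27466982, with 48.8 and 59.2), and the nearest Normal peaks were 7927 and 11283 bp from them. Rank 6, on chromosome 6 from 5482861 to 5483391, differed most between the libraries of these 8, with 44.9 and 73.1. Rank 7 was on chromosome 4 (16763379 to 16763868, with 42.2 and 45.6), and ranks 8 to 10 were on chromosome 1, at 5257817 to 5258280 (41.5 and 42.3), 4218115 to 4218470 (40.7 and 40.5) and 29122469 to 29123184 (38.2 and 40.2). Of the 10 strongest members, 6 had another member within 5 kb, against 23.4% of all members, and 5 had a Normal peak within 5 kb, against 73.0%. These 10 were picked for their strength, and their small number limits both shares.

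On the remaining chromosomes the highest ranked members were weaker. On chromosome 3 it was a region of 1914 bp from 33300086 to 33301999, with 38.2 and 37.8, a Normal peak of 65.4 at 1809 bp and 2 peaks in HS replicate 2. Chromosome 7 had 47.4 and 32.2 between 5034767 and 5035114, and chromosome 5 had 34.9 and 40.2 between 28080257 and 28080701. Chromosome 11 had 34.9 and 35.7 in a region of only 175 bp (16206101 to 16206275) that lay 32603 bp from the nearest shared region. Chromosome 9 had 34.4 and 27.4 (20911756 to 20912064), and chromosome 12 had 33.9 and 30.1 (24804277 to 24804666).

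The widest members were not among the strongest. The region of 2318 bp was on chromosome 3 from 9420911 to 9423228 and had 14.9 and 15.8. One of 2122 bp on chromosome 8 (24100431 to 24102552) had 20.6 and 21.5, and one of 2029 bp on chromosome 6 (8388386 to 8390414) had 11.6 and 18.5. Each was a single peak in either HS list.

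HS-only regions were found on every chromosome. Their share of all regions ran from 7.81% on chromosome 11 (243 of 3113) to 11.8% on chromosome 3 (689 of 5859), which is 8.45 and 18.6 per Mb. The share of mixed-pair regions ran from 3.91% to 5.53%. HS-only regions outnumbered Normal-only regions on all 12 chromosomes, by 3.20 times on chromosome 11 and up to 8.51 times on chromosome 3. Within 1 Mb of the chromosome ends, taken from the first base and the last peak, lay 6.36% of the HS-only regions and 7.33% of all regions. The share was 7.56% in mixed-pair regions, 7.87% in shared regions and 9.19% in Normal-only regions.

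Within chromosomes, HS-only regions lay where shared regions were dense. The chromosomes were divided into 378 bins of 1 Mb, which were ranked by their number of shared regions and split into 4 groups of 94 or 95 bins. The poorest group, with 0 to 33 shared regions per bin, held 10.6% of the HS-only regions, and the others held 18.7%, 29.5% and 41.2%. Shared regions themselves were spread in nearly the same way (11.2%, 19.8%, 29.3% and 39.7%). The mixed-pair regions were spread almost evenly, with 23.8%, 24.9%, 26.7% and 24.7%, and so were the Normal-only regions, with 25.4%, 24.3%, 23.4% and 26.9%. As a share of all regions in a group, HS-only regions went up with density (6.17%, 8.57%, 10.9% and 12.4%), while mixed-pair regions went down (6.34%, 5.21%, 4.50% and 3.41%). In the poorest group the HS-only class (530 regions) was no larger than the 4 mixed pairs summed (544 regions).

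**Figure D4:**
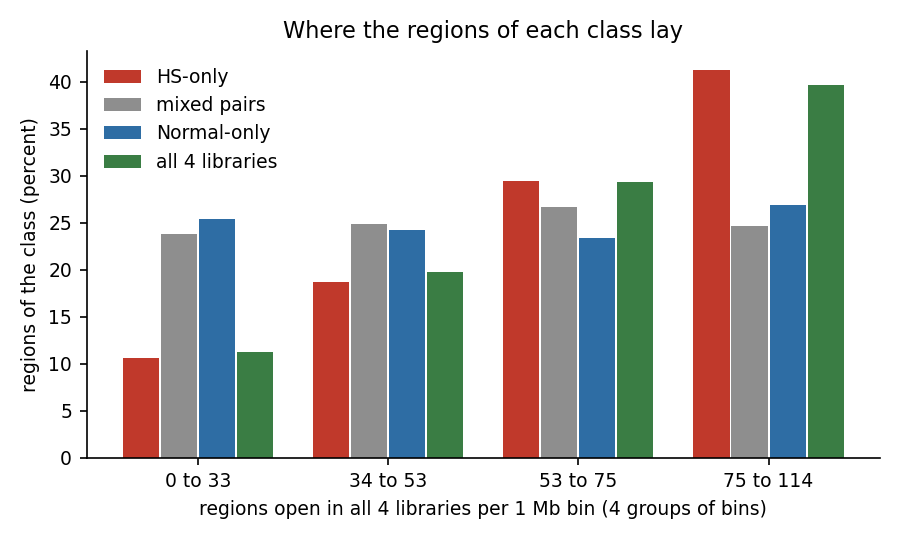
Percent of the regions of each class (y axis) in 4 groups of the 1 Mb bins, ranked by the number of regions open in all 4 libraries per bin (x axis). HS-only regions (red) went up from 10.6% to 41.2%, as did the regions open in all 4 libraries (green, 11.2% to 39.7%), while mixed pairs (grey) and Normal-only regions (blue) stayed between 23.4% and 26.9%.

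Across the 378 bins, Spearman's rho with the number of shared regions was 0.81 for HS-only regions (Pearson's r = 0.79), 0.031 for mixed pairs and 0.067 for Normal-only regions. These are descriptions, since the bins share their libraries and shared regions also need HS peaks. For regions of both HS lists and 1 Normal list rho was 0.78. Within single chromosomes the HS-only value was between 0.41 (chromosome 11) and 0.88 (chromosome 10). The pattern moved with strength. Of the HS-only regions up to percentile 20, 37.7% lay in the richest group of bins, against 44.3% of those above percentile 40. Mixed-pair regions showed a shift of the same direction, with 20.4% up to percentile 20 and 31.1% above it. This split was also chosen after seeing the data.

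The bin with most HS-only regions was on chromosome 3 from 29000001 to 30000000. It held 37 of them among 178 regions (20.8%), with 6 mixed-pair and 1 Normal-only region. Next came chromosome 1 from 30000001 to 31000000, with 36 of 204 regions, and chromosome 3 from 7000001 to 8000000, with 35 of 170 and with 0 mixed-pair and 0 Normal-only regions. The median bin held 12. Of the bins with more than 2 regions, a single one had 0 members, on chromosome 6 from 14000001 to 15000000, where 117 regions included 6 of mixed pairs, 7 Normal-only and 35 shared.

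At a finer scale, the order of the classes by distance to shared regions changed with the distance. The gap to the nearest shared region had a median of 4507 bp, against 6008 to 6349 bp in the 4 mixed pairs and 4789 bp in Normal-only regions. It was at most 5 kb for 54.4% of the HS-only regions, for 41.2% to 43.8% of the mixed-pair regions and for 51.2% of the Normal-only regions. Within 2 kb it was 27.3% of the HS-only, 21.4% to 24.2% of the mixed-pair and 30.6% of the Normal-only regions. Within 1 kb, HS-only regions (13.7%) lay inside the range of the mixed pairs (10.7% to 14.6%) and below Normal-only regions (17.6%). A gap of 200 bp or less was rarer in HS-only regions (36 of 4997, 0.720%) than in mixed pairs (1.65% to 2.18%) and Normal-only regions (2.13%), but it was as rare in regions of both HS lists and 1 Normal list (0.716%). A wider HS peak that overlapped a Normal peak would have been merged into its region and could not be a member.

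**Figure D5:**
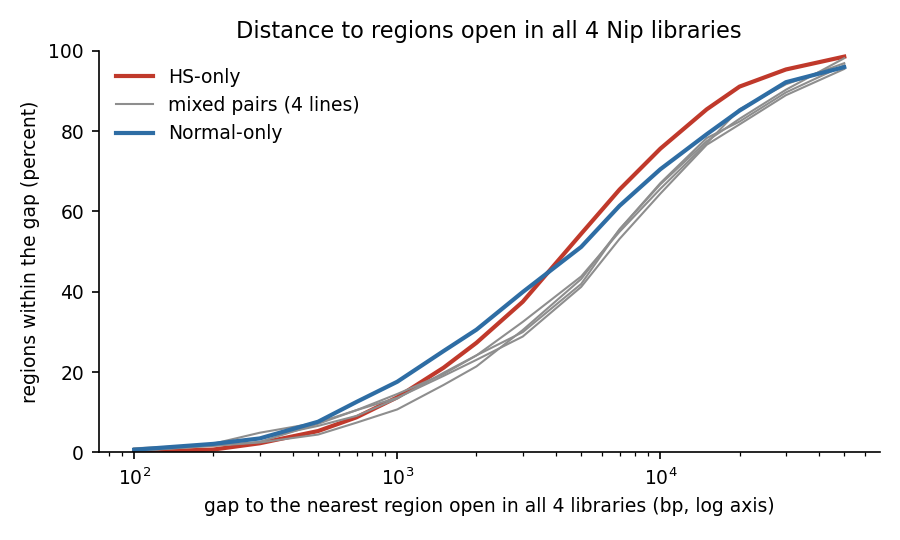
Percent of regions (y axis) whose gap to the nearest region open in all 4 libraries was at most the length on the x axis (bp, log scale). At 5 kb HS-only regions (red) reached 54.4%, the 4 mixed pairs (grey) 41.2% to 43.8% and Normal-only regions (blue) 51.2%, and at 200 bp HS-only regions were lowest, with 0.720%.

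Any Normal peak, including those of a single library, lay a median of 2630 bp from an HS-only region. It was within 200 bp for 80 members (1.60%), within 1 kb for 1065 (21.3%) and within 5 kb for 73.0%. For Normal-only regions the nearest HS peak was at a median of 1893 bp and within 1 kb in 31.9%. There were more HS than Normal peaks to be near to, which makes these medians unlike in their base. No Normal peak lay within 1 kb of the other 78.7% of the HS-only regions.

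HS-only regions were also near one another. The nearest other member was at a median of 17218 bp, and it was within 1 kb for 332 members (6.64%). The class is the larger one, so its members are closer for that reason too, and adjacency in the order of regions was used as well. The next region along the chromosome was also HS-only for 710 of 4997 members (14.2%), where HS-only regions are 10.1% of all. For Normal-only regions the next was of the same class in 3.68%, where they are 2.08% of all. In mixed pairs it was of the same pair in 0.828% to 1.81%, where each pair is 0.976% to 1.30% of all. The excess over the background was thus not particular to HS-only regions, as Normal-only regions showed one too (38 regions). In 3 of the 4 mixed pairs there was a small excess, which rested on 9 to 11 regions per pair. The density of shared regions, with which the HS-only number goes up, was not removed from this comparison.

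Most members, 3686, stood alone, with a region of another class on either side. There were 511 runs of 2 in a row, 74 of 3, 14 of 4, 1 of 5 and 1 of 6. The run of 6 lay on chromosome 1 from 39228565 to 39239458, over 10.9 kb. Its members were 249 to 455 bp long, and their values in HS replicates 1 and 2 were 7.21 and 9.57, 6.71 and 7.84, 6.27 and 4.95, 3.61 and 5.44, 8.38 and 4.51, and 12.8 and 12.5. The nearest Normal peak was at least 7209 bp from each of them. Members 2, 3 and 4 of the run began 1149 and 1148 bp apart, with a gap of 868 bp between neighbours in both cases. Whether repeated sequence lies there was not tested, as no genome of the build was used.

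Distances to other members and to shared regions moved with the strength of the member. Of the 2003 members up to percentile 20, 21.5% had another member within 5 kb, and of the 235 above percentile 60, 30.6% did. The median gap to the nearest shared region was 4847 bp in the weakest band and 3846 bp in the strongest, and the median length of the region was 367 and 484 bp. The median distance to the nearest Normal peak showed no such trend, with 2687, 2677, 2445 and 2616 bp in members up to percentile 20, from 20 to 40, from 40 to 60 and above 60.

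Shared regions beside HS-only regions were compared between HS and Normal by their percentile in each list, a measure the rule did not use, although it comes from the same libraries. Within 2 kb of an HS-only region lay 1443 shared regions. The HS lists were longer, and additional weak peaks raise the percentile of every other peak, so the values are read only against those of all shared regions. The percentile was higher in HS than in Normal by a median of 4.76, and in 45.5% of them both HS percentiles were above both Normal percentiles. Over all 20632 shared regions the median was 2.59 and the share 39.3%. Beside the 4 mixed pairs the medians were 2.31 to 4.12 and the shares 33.1% to 45.2%, and beside Normal-only regions -0.29 and 30.3%. The value beside HS-only regions was thus above that of all shared regions but only little above the highest mixed pair, which rests on 135 shared regions. The summed width of the HS peaks over that of the Normal peaks had a median of 1.16 beside HS-only regions, 1.14 to 1.19 beside the mixed pairs and 1.15 over all shared regions, so by width the neighbours of HS-only regions did not stand apart.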

How the data were processed

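Peak lists of the 4 Nip libraries were used (2 HS, 2 Normal). The 93-11 lists entered only counts of regions and background rates. Per the methods of the study, the authors trimmed reads with Cutadapt, mapped them with Bowtie2, filtered them with SAMtools and Picard, and called peaks per library with MACS2 at an adjusted p of 0.05. The submitters' processing notes instead list BWA 0.7.10-r789, beside MACS2 2.1.1, SAMtools 0.1.19 and deepTools 2.0, so the aligner is uncertain. Any Tn5 shift and the genome build are not given in the sources used here. The value deposited by the authors for each peak has no header and was read as a −log10 p-value, not adjusted, from its range and because 29.0% to 33.5% of the values in a list lay on Poisson tails at whole pileups. The rate of these tails was fitted to the 12 most frequent values and is the background rate. Folds over background and scaled values apply this rate also to the values that did not lie on these tails. Depth is unknown, and no intervals were given.

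Peaks were merged and counted with Python 3.11.15, pandas 2.3.3, numpy 2.4.6 and SciPy 1.17.1, and the merging and the rate were tested on simulated lists. A region with several peaks in a list took the highest value. No test was run, because the libraries compared had chosen the regions. The 4 mixed pairs served as background. They reuse the same 4 libraries, so their range does not measure the variation between replicates. The regions, classes and measures were chosen with earlier results of these data known. Named regions are the 10 with the highest lower percentile, the best of each chromosome, the 3 lowest, the 3 just outside, the 3 widest and the 3 fullest bins. Other members tied with the lowest ones were not named. The run of 6 was chosen after its values were seen. Without a genome of the build, genes, promoters, sequences and motifs were not analysed here.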

Additional observations from a re-analysis of the deposited data

Results flagged for a closer look

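The direction of the class sizes differed between the cultivars. HS-only regions were 4.83 times the Normal-only regions in Nip (4997 and 1034), but 0.306 times in 93-11 (1760 and 5756). With only the 10000 strongest peaks of each list the Nip ratio was 1.09 (1294 and 1192), in a set that kept only 51 of the 4997 regions. Lists of equal length draw the 2 classes toward equal size, so that ratio is no check on depth. This contrast of Nip with 93-11 was not tested. The recovered background rate also moved in opposite directions. It was 6.82 ± 0.0389 in HS and 5.26 ± 0.0636 in Normal in Nip, and 4.53 ± 0.180 in HS and 6.39 ± 0.396 in Normal in 93-11 (SD, n = 2 each). Its part in the class sizes was not tested.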

How the results depend on the processing

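The number of HS-only regions (4997) was 5042 at a common minimum −log10 p of 5 and 3709 at 4 times the background. It was 4996 with peaks up to 100 bp apart merged, 4156 with a reciprocal overlap of at least 0.5 and 5006 on all sequences. With HS values scaled to the Normal background it was 4867. That setting was chosen after seeing the data and could only remove members, so it is no check on depth. The ratio to Normal-only regions (4.83) was 3.89 to 6.07 in these settings. With the 10000 strongest peaks of each list the number was 1294 and the ratio 1.09, where all lists are equally long by construction. Of the 4997 regions, 51 (1.02%) were kept there, 1707 (34.2%) at 4 times the background and 3885 (77.8%) at the minimum of 5. Of the 19 strongest, best of chromosome and widest regions, 15 remained with the 10000 strongest peaks. Most of them had been picked by the rank that this cut uses, so the count follows from the choice. With a library left out or on all sequences every member stays by construction. Leaving out each library gave 6884 to 9447 regions and ratios of 1.41 to 5.61. The share in the richest group of bins (41.2%) was 45.6% with the 10000 strongest peaks, 45.8% at 4 times the background and 33.9% to 40.7% with a library left out. The share with a Normal peak within 1 kb (21.3%) was 5.10% with the 10000 strongest peaks, 17.7% at the minimum of 5, 13.6% at 4 times the background and 17.5% to 23.7% with a library left out. At a higher threshold fewer Normal peaks remain to be near to. No paired analysis was possible because the results are counts and shares of regions that come from no test. Mixed pairs of the same replicate number had 607 and 551 regions and those of different numbers 484 and 646. The planned shares near gene starts and with heat shock elements were not run, since no genome of the build was used here. Unknown depth limits all of these values.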
